A study of Mus musculus with 9 samples.

Results

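Homeostatic microglial signature genes are transcripts that microglia, the resident macrophages of the brain parenchyma, express in the healthy brain at levels well above those of blood myeloid cells and other brain cells. The genes examined here were *Tmem119*, *Olfml3*, *Rnase4*, *Sall1*, *Slc2a5*, *Crybb1* and *Golm1*. They were taken as a fixed list of 7 symbols, and each was read from a probe set annotated to that symbol alone. Where a symbol had several such probe sets, the brightest by its average across the 9 arrays was used. All 7 were measured, out of 17097 genes with such a probe set. The samples were blocks of brain 4 mm wide around the injection site, from the injected hemisphere of male C57Bl/6J mice aged 10-12 weeks that had received lipopolysaccharide (LPS, a bacterial cell wall component) or PBS in the striatum. Tissue was collected after saline perfusion at 4 d after LPS (the resolution phase of the inflammation), at 1 d after LPS (the induction phase) or at 4 d after PBS. Each group had 3 arrays, and every array carried RNA combined from 3 mice. No PBS group collected at 1 d was analysed here, so time since injection and LPS cannot be told apart in the comparison of LPS 1 d with PBS. The comparison of LPS 4 d with LPS 1 d also spans different times since injection, without PBS at 1 d to set beside it.

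In the steady state, microglia depend on signalling through the receptor CSF1R for survival and on TGF-beta for the adult form of their expression programme, with the factor PU.1 shared by all macrophages. Homeostatic genes commonly lose expression when microglia meet inflammatory stimuli, and macrophages that enter the brain from the blood express few of them at first. The products of the members are varied. *Tmem119* encodes a membrane protein used as a surface marker of microglia, *Olfml3* a secreted olfactomedin-domain glycoprotein and *Rnase4* a secreted ribonuclease. *Sall1* encodes a zinc finger transcription factor that maintains microglial identity in mice, *Slc2a5* the fructose transporter GLUT5, *Crybb1* a beta crystallin best known from the lens and *Golm1* a membrane protein of the Golgi apparatus.

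Levels are given on the log2 scale, on which a difference of 1 is a doubling. The array medians lay between 4.32 and 4.37, the correlation between arrays was 0.992 to 0.994 within groups (9 pairs) and 0.981 to 0.990 between groups (27 pairs), and a group mean no higher than 3.49 was taken as background, a level set by the brightest of 23 nonspecific control probe sets. Markers of other macrophages and leukocytes also differed between the groups. A gene was called where its adjusted p was under 0.05 and its fold change 1.5 or more, and 4.21% of all 17097 genes were called higher at 4 d after LPS against PBS and 3.86% at 1 d. Of the 16 pan-macrophage genes, 16 were called higher at 4 d and 13 at 1 d. The summed linear level of these genes was 9204 to 10958 in the LPS 4 d group, 4198 to 4539 in the LPS 1 d group and 1984 to 2149 in the PBS group. Their part in the results below was not tested, and in tissue homogenate a change in the number of cells of a type and a change in RNA per cell cannot be told apart.

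*Rnase4*, *Olfml3* and *Tmem119* rose at 4 d after LPS against PBS, by 2.50-, 2.46- and 2.17-fold. The other 4 members did not pass the test in this comparison, and none of the 7 passed at 1 d against PBS. For the same 3 genes LPS 4 d also exceeded LPS 1 d, by 3.61-, 2.21- and 2.26-fold in the same order, in a comparison where 1.84% of all genes were called higher. The study picked out these 3 genes from the same arrays, so their direction is not independent evidence. Both comparisons with PBS share the PBS arrays.

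**Figure D1:**
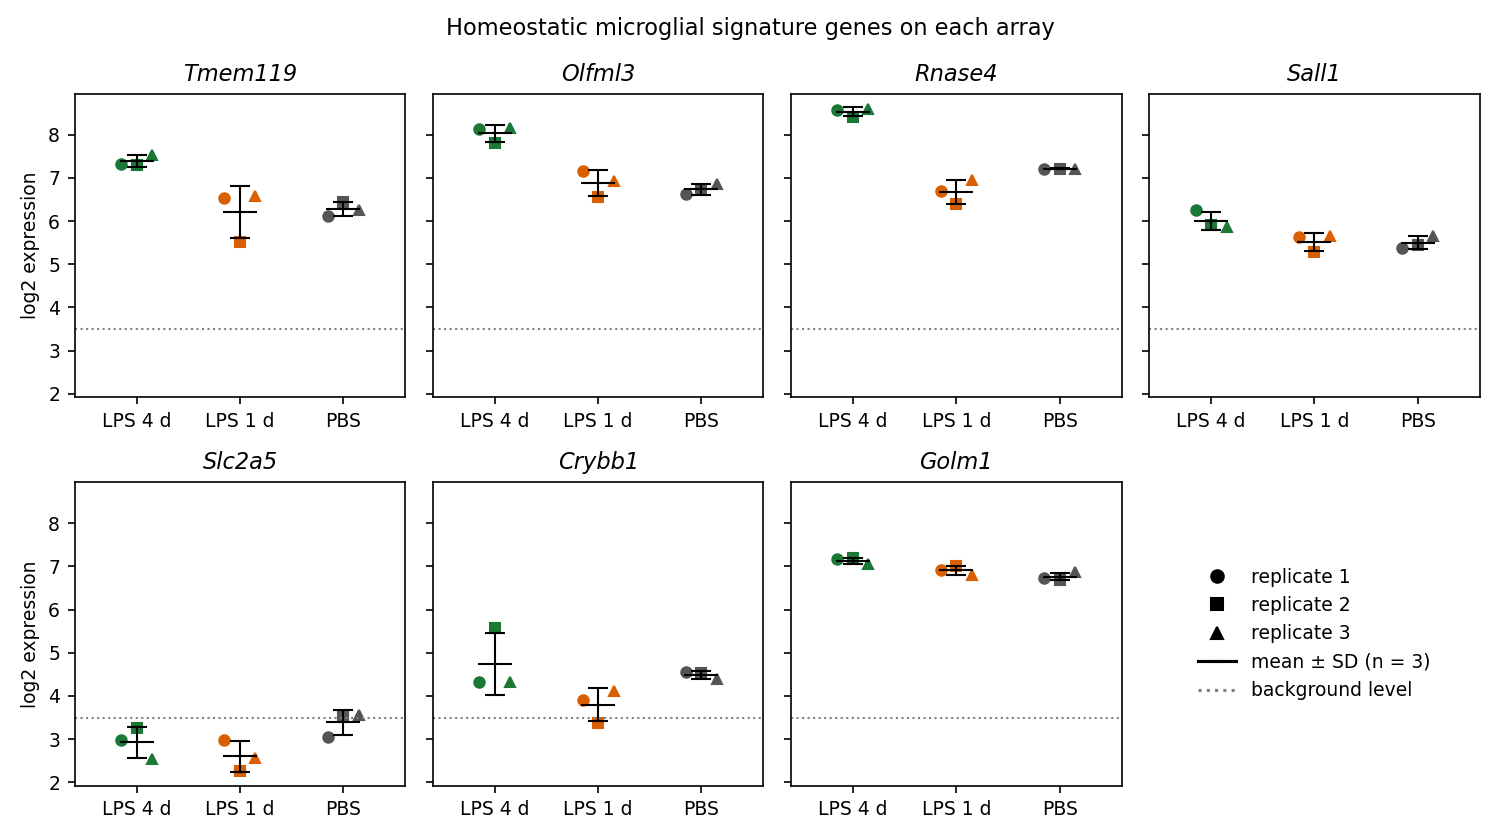
Log2 expression of the 7 members on each array (vertical axis, log2 units) for LPS 4 d, LPS 1 d and PBS, with a point per array, bars for the mean ± SD of 3 arrays and a dotted line at the background level of 3.49. *Tmem119*, *Olfml3* and *Rnase4* at 4 d after LPS lie above all arrays of the other groups, while *Slc2a5* lies around the background level.

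The surface marker *Tmem119* had log2 values of 7.32, 7.30 and 7.54 on the LPS 4 d arrays, 6.54, 5.52 and 6.57 on the LPS 1 d arrays and 6.12, 6.44 and 6.25 on the PBS arrays. All 3 arrays at 4 d lay above the arrays of both other groups, whereas at 1 d replicate 2 was about 1 log2 unit under its companions and the other 2 arrays lay above all PBS arrays. The group means were 7.39 ± 0.13 at 4 d, 6.21 ± 0.60 at 1 d and 6.27 ± 0.16 after PBS (SD, n = 3 each), so that the widest spread was at 1 d. The log2 change at 4 d against PBS was 1.12 (standard error 0.25, 95% confidence interval 0.54 to 1.69, adjusted p = 0.0451 from limma). The 1 d change was -0.06, with an interval of -0.63 to 0.51 (adjusted p = 0.939 from limma). The 4 d level exceeded the 1 d level by 1.18 log2 units (interval 0.61 to 1.75, adjusted p = 0.0488 from limma). Both calls of *Tmem119* lay close to the threshold. The call at 4 d against PBS was lost when any 1 of the 6 arrays of LPS 4 d or PBS was left out (adjusted p 0.0853 to 0.140), but without LPS 1 d replicate 2 the adjusted p was 0.00106. The call between the times was lost without any 1 array (adjusted p 0.0524 to 0.144) other than LPS 1 d replicate 2, without which the difference was 0.83 (adjusted p = 0.0178). The change at 1 d against PBS was 0.28 without that array (adjusted p = 0.376).

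Of the secreted products, *Olfml3* measured 8.13, 7.80 and 8.16 log2 units on the LPS 4 d arrays, 7.17, 6.55 and 6.93 on the LPS 1 d arrays and 6.62, 6.71 and 6.86 on the PBS arrays. The 4 d arrays stood apart above the rest, and the 1 d and PBS arrays overlapped. The rise at 4 d against PBS was 1.30 (standard error 0.16, interval 0.93 to 1.67, adjusted p = 0.00198 from limma), with means of 8.03 ± 0.20 at 4 d, 6.88 ± 0.31 at 1 d and 6.73 ± 0.12 after PBS (SD, n = 3 each). The difference between 1 d and PBS was 0.15 (interval -0.22 to 0.52, adjusted p = 0.718 from limma). Between 4 d and 1 d after LPS it was 1.15 (interval 0.78 to 1.51, adjusted p = 0.00657 from limma).

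*Rnase4* had log2 values of 8.58, 8.41 and 8.60 on the LPS 4 d arrays, 6.70, 6.39 and 6.95 on the LPS 1 d arrays and 7.22, 7.20 and 7.21 on the PBS arrays. Among the 7 members it had the largest difference between the times after LPS, and all 4 d arrays lay above PBS and all 1 d arrays below PBS. Against PBS the log2 change was 1.32 at 4 d (standard error 0.13, interval 1.02 to 1.62, adjusted p = 0.000518 from limma). At 1 d the change was -0.53 (interval -0.83 to -0.23). This was 1.45-fold lower, and so under the fold threshold as well as short of the p threshold (adjusted p = 0.0666 from limma). The gene passed as lower (-0.67, adjusted p = 0.0214) when LPS 1 d replicate 3 was left out. Between the times after LPS the difference was 1.85 (interval 1.55 to 2.15, adjusted p = 0.000293 from limma), the 27th highest of the 17097 genes in that comparison.

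RefSeq gives *Rnase4* more than 1 start, and its first start is shared with *Ang*, the gene of angiogenin, another secreted ribonuclease. The windows from 250 bases before to 50 bases after each start (GRCm38.p6) are shown because *Rnase4* and *Ang* rose together, as described below, and the window of *Olfml3* because it changed by a similar amount at 4 d. Capitals mark CAGAC, the SMAD box bound by the transducers of TGF-beta signals, on either strand (GTCTG on the strand shown).
Rnase4, first start, shared with Ang (chr14:51090827-51091126, plus strand): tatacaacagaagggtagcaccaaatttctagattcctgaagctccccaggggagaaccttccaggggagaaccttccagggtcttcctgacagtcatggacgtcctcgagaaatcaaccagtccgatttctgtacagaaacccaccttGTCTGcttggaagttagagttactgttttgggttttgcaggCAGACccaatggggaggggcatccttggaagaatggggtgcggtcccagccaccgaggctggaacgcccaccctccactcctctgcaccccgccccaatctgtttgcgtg
Rnase4, second start (chr14:51095750-51096049, plus strand): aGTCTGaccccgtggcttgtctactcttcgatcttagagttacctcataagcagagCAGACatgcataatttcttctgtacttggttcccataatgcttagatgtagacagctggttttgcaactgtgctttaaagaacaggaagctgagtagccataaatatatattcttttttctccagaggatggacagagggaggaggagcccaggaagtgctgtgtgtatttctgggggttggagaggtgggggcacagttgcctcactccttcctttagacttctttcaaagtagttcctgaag
Olfml3 (chr3:103737952-103738251, minus strand): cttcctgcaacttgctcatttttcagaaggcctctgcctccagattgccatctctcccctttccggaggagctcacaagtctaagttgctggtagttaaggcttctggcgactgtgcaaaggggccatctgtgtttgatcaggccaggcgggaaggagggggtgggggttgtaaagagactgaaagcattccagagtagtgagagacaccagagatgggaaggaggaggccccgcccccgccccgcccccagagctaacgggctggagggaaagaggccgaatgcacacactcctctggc
Each *Rnase4* window held 2 matches to CAGAC, at -101 and -60 from the first start and at -249 and -194 from the second, and the *Olfml3* window held 0. Across the 9 windows found for 6 members, 6 windows of 5 genes held the box, with 5 matches in that of *Slc2a5*, and 49.6% of 32851 mouse promoter windows of 300 bases held it as well. The other motif searched on both strands, GAGGAA (a core bound by PU.1), had 0 matches in the 9 windows, and 28.3% of all windows held it. A match is a description of the letters and not of a site in use.

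The transcription factor gene *Sall1* showed 6.25, 5.90 and 5.85 log2 units on the LPS 4 d arrays, 5.64, 5.28 and 5.65 on the LPS 1 d arrays and 5.37, 5.44 and 5.66 on the PBS arrays. The 4 d arrays were above all others by a small margin, and the 1 d and PBS arrays were mixed. The change at 4 d against PBS was 0.51 (interval 0.18 to 0.83, adjusted p = 0.109 from limma), at 1 d against PBS 0.03 (interval -0.30 to 0.36, adjusted p = 0.951) and between the times 0.48 (interval 0.15 to 0.81, adjusted p = 0.172). A second *Sall1* probe set was dimmer, with means of 4.06 at 4 d, 4.02 at 1 d and 3.76 after PBS, and it differed at 4 d against PBS by 0.30 (adjusted p = 0.391). On that probe set the arrays of all 3 groups overlapped.

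*Slc2a5* was at background in all 3 groups. Its values were 2.97, 3.25 and 2.54 log2 units on the LPS 4 d arrays, 2.97, 2.26 and 2.56 on the LPS 1 d arrays and 3.05, 3.54 and 3.56 on the PBS arrays, with 2 PBS arrays the only values above the background level. No fold change is given for it. It did not pass at 4 d (adjusted p = 0.371 from limma) or at 1 d (adjusted p = 0.124) against PBS, and an amount of the fructose transporter transcript under the background level could not be detected.

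*Crybb1* had log2 values of 4.32, 5.56 and 4.32 on the LPS 4 d arrays, 3.90, 3.38 and 4.11 on the LPS 1 d arrays and 4.56, 4.52 and 4.39 on the PBS arrays. Its 4 d mean rested on replicate 2, since the other 2 arrays lay below all PBS arrays, and all 1 d arrays lay below PBS. The change at 4 d against PBS was 0.24 (interval -0.48 to 0.97, adjusted p = 0.759 from limma) and -0.17 without LPS 4 d replicate 2. At 1 d against PBS it was -0.69 (interval -1.42 to 0.03, adjusted p = 0.342), and 4 d exceeded 1 d by 0.94 (interval 0.21 to 1.66, adjusted p = 0.237).

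*Golm1* had small SDs, from 0.07 to 0.10, and measured 7.16, 7.19 and 7.05 log2 units on the LPS 4 d arrays, 6.91, 7.01 and 6.80 on the LPS 1 d arrays and 6.74, 6.69 and 6.86 on the PBS arrays. The 4 d arrays were above all others, and the 1 d and PBS arrays overlapped. The difference at 4 d against PBS was 0.37 (standard error 0.09, interval 0.17 to 0.57), 1.29-fold and so under the fold threshold as well as short of the p threshold (adjusted p = 0.0552 from limma). The 1 d difference from PBS was 0.15 (adjusted p = 0.479) and between the times 0.22 (adjusted p = 0.316).

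**Figure D2:**
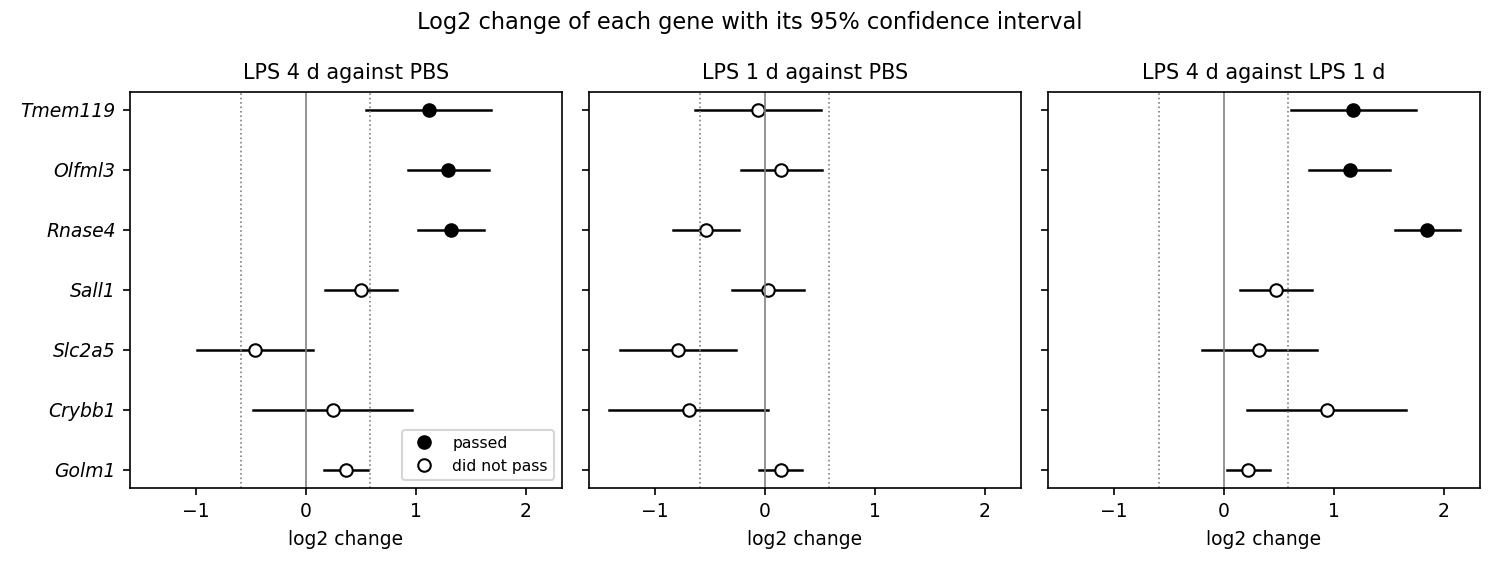
Log2 change of each member (horizontal axis, log2 units) with its 95% confidence interval from limma, in 3 panels, which set LPS 4 d against PBS, then LPS 1 d against PBS, and last LPS 4 d against LPS 1 d; filled points passed the test and dotted lines stand at the 1.5-fold threshold. *Tmem119*, *Olfml3* and *Rnase4* are filled in the first and the last panel, no gene is filled in the middle panel, and *Slc2a5* was at background in all groups.

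Counted over the list, 3 of 7 members were called higher at 4 d against PBS and 0 lower, where 4.21% of all 17097 genes were called higher and 0.205% lower. For 5 of 7 all 4 d arrays lay above all PBS arrays, as for 12.0% of all genes, and for 0 of 7 they lay below, as for 11.8%. The median log2 change of the members was 0.51 and that of all genes -0.02, so that the list sat on the higher side at 4 d. At 1 d against PBS 0 of 7 passed in either direction by limma (2 had an unadjusted p under 0.05, *Rnase4*, which was lower, and *Slc2a5*, which was at background), where 3.86% of all genes were called higher and 0.532% lower. *Rnase4*, *Slc2a5* and *Crybb1* had all 1 d arrays below PBS, as did 14.0% of all genes, 0 of 7 had them above, as did 11.5%, and the median change was -0.06 against -0.03 for all genes. Between 4 d and 1 d after LPS, 3 of 7 were called higher and 0 lower, where 1.84% of all genes were called higher and 1.37% lower, and 6 of 7 did not overlap, against 11.4% of all genes in that direction. All LPS 4 d arrays lay below for 0 of 7, against 9.76% of all genes. The median of the members in this comparison was 0.94, and that of all genes 0.00. Again no member was called lower. The test across the 3 groups called the same 3 genes (adjusted p = 0.000105 for *Rnase4*, 0.00227 for *Olfml3* and 0.0390 for *Tmem119* by limma's F-test), where 7.67% of all genes passed.

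At the level of single arrays, LPS 1 d replicate 2 held the lowest value of its group for 6 of 7 members, all but *Golm1*, and for 19 of 28 other homeostatic genes. The median difference of the members from the PBS mean was 0.76, 1.03 and 0.36 on the arrays at 4 d after LPS, and 0.15, -0.76 and 0.04 on those at 1 d. The neutrophil markers on the same 1 d arrays had medians of 0.85, 2.15 and 1.67, and the pan-macrophage markers 1.15, 0.88 and 1.13. The array with the lowest member values therefore also had the highest neutrophil and the lowest pan-macrophage median of its group, and the part of either in the member values was not tested. Without that array the 3 members called at 4 d against PBS and at 4 d against 1 d were the same, and 0 were called at 1 d against PBS.

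**Figure D3:**
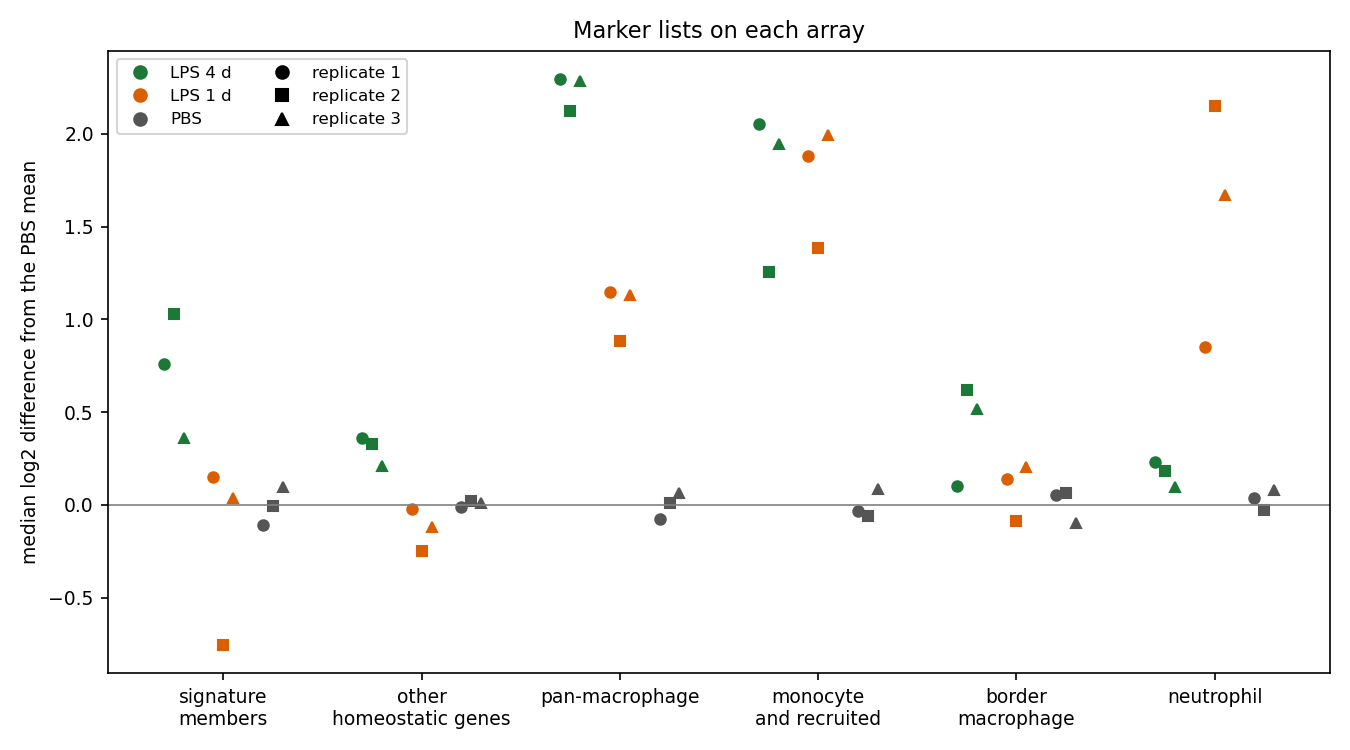
Median log2 difference from the PBS mean (vertical axis, log2 units) over the genes of 6 lists, with a point per array and a marker shape per replicate, for LPS 4 d, LPS 1 d and PBS. The signature members reach 0.36 to 1.03 at 4 d, while the pan-macrophage genes reach 2.12 to 2.30, and LPS 1 d replicate 2 is lowest for the members at -0.76 and highest for the neutrophil list at 2.15.

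The members differed in how closely they followed each other over the 9 arrays, which share the group differences above. *Tmem119* and *Olfml3* had a Pearson correlation of 0.94, *Tmem119* and *Rnase4* 0.91, *Olfml3* and *Sall1* 0.91 and *Olfml3* and *Rnase4* 0.90. *Sall1* thus tracked the 3 genes that passed, with a smaller amplitude. *Slc2a5* had 0.10 with *Tmem119*, 0.15 with *Rnase4* and -0.09 with *Olfml3*, and its highest value was 0.61, with *Crybb1*. These are descriptions over 9 arrays without a test, and those of *Slc2a5* rest on signal at background.

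Among 12063 other genes above background in at least 1 group, those whose pattern over the 9 arrays was most like a member included 4 genes of the other homeostatic list described below, all of them beside a member that passed. For *Rnase4* they were *Selenop*, which encodes the selenium carrier selenoprotein P (r = 0.995), *Trem2*, a lipid-sensing receptor of microglia (r = 0.99), and *Fcrls* (r = 0.98). For *Olfml3* they were *Tnfrsf13b* (r = 0.99), *Adgrl4*, an endothelial adhesion receptor (r = 0.99), and *Cx3cr1*, the fractalkine receptor (r = 0.98). For *Tmem119* they were *Otulinl* (r = 0.98), *E2f8*, a cell cycle transcription factor (r = 0.98), and the organic anion transporter gene *Slco2b1* (r = 0.97). *Selenop* was like *Rnase4* in shape only, with a log2 change of 0.37 at 4 d against PBS and -0.16 at 1 d. The nearest genes of *Sall1* were *Rnpepl1*, *Tal1* and *Tnfrsf19* (r = 0.97, 0.94 and 0.94), those of *Crybb1* were *Wdr24*, *Tsga10* and *Tdp1* (r = 0.96, 0.96 and 0.95), those of *Golm1* were *Clta*, *Fblim1* and *Gabarap* (r = 0.97, 0.96 and 0.95) and those of *Slc2a5* were *Mn1*, *Ankrd63* and *Arhgap33* (r = 0.98, 0.97 and 0.96). *Slc2a5* was at background in all groups, so its likeness to other genes rests on signal at background. To the mean of the 7 members, *H2bc4* (r = 0.99), the integrin gene *Itgb5* (r = 0.98), *Tns3*, *Otulinl* and *Slco2b1* (r = 0.97 each) were closest.

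Of 30 other genes listed as homeostatic in microglia, 28 were analysed. Of these, 9 were called higher and 0 lower at 4 d against PBS (median 0.21), against 4.21% and 0.205% of all genes. The 4 largest rises were in *P2ry6*, a receptor for UDP linked to phagocytosis (2.37, adjusted p = 8.18e-05), *Fcrls*, an Fc receptor-like gene of mouse microglia (2.23, adjusted p = 0.00318), the prostaglandin D synthase gene *Hpgds* (1.71, adjusted p = 0.0337) and *Trem2* (1.61, adjusted p = 0.00096). *Cx3cr1*, *Csf1r*, *Lpcat2*, *Itgb5* and *Tgfbr1* were the others, with log2 changes of 1.51, 1.32, 1.36, 1.12 and 0.68. The rises of *Rnase4*, *Olfml3* and *Tmem119* (1.32, 1.30 and 1.12) thus lay within the range of these genes. The purinergic receptor gene *P2ry12* (-0.47, adjusted p = 0.397), *Mef2c* (-0.12) and *Smad3* (0.04) were among the 19 that did not pass.

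In the LPS 1 d group 3 of these 28 genes were called lower than PBS and 2 higher (median -0.20). Of all genes, 0.532% were called lower and 3.86% higher. *Gpr34*, a lysophosphatidylserine receptor gene, measured 3.83, 2.43 and 3.47 log2 units at 1 d after LPS and 5.93, 5.78 and 5.40 after PBS, and it was called lower (adjusted p = 0.00385 from limma). Its 1 d mean lay at background, with 1 of 3 arrays above it, so that the 1 d level was at least 4.29-fold lower than PBS. The bounds given here set the mean of the brighter group against the background level of 3.49, in place of each array under it, where the mean of the dimmer group lies under that level. *P2ry12* measured 5.33, 4.48 and 5.21 at 1 d and 7.32, 7.21 and 6.93 after PBS, and it fell by 2.14 (adjusted p = 0.00106). *P2ry13* fell by 0.83 (adjusted p = 0.00239), and *P2ry6* and *Lpcat2* rose by 1.48 and 0.72 (adjusted p = 0.00117 and 0.00993). Among the 6 members above background, the log2 differences at 1 d against PBS ran from -0.69 for *Crybb1* to 0.15 for *Olfml3*, and none was called. Between 4 d and 1 d after LPS 13 of the 28 were called higher and 0 lower (median 0.62), against 1.84% and 1.37% of all genes. Among the 13 were *Fcrls* (2.76), *Trem2* (2.35) and *Hpgds* (2.13), and *Gpr34* by at least 1.98. For *Gpr34*, *P2ry12* and *P2ry13* the 4 d level was not called different from PBS (log2 changes -0.13, -0.47 and -0.13), whereas *Rnase4*, *Olfml3* and *Tmem119* were called higher than PBS at 4 d.

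**Figure D4:**
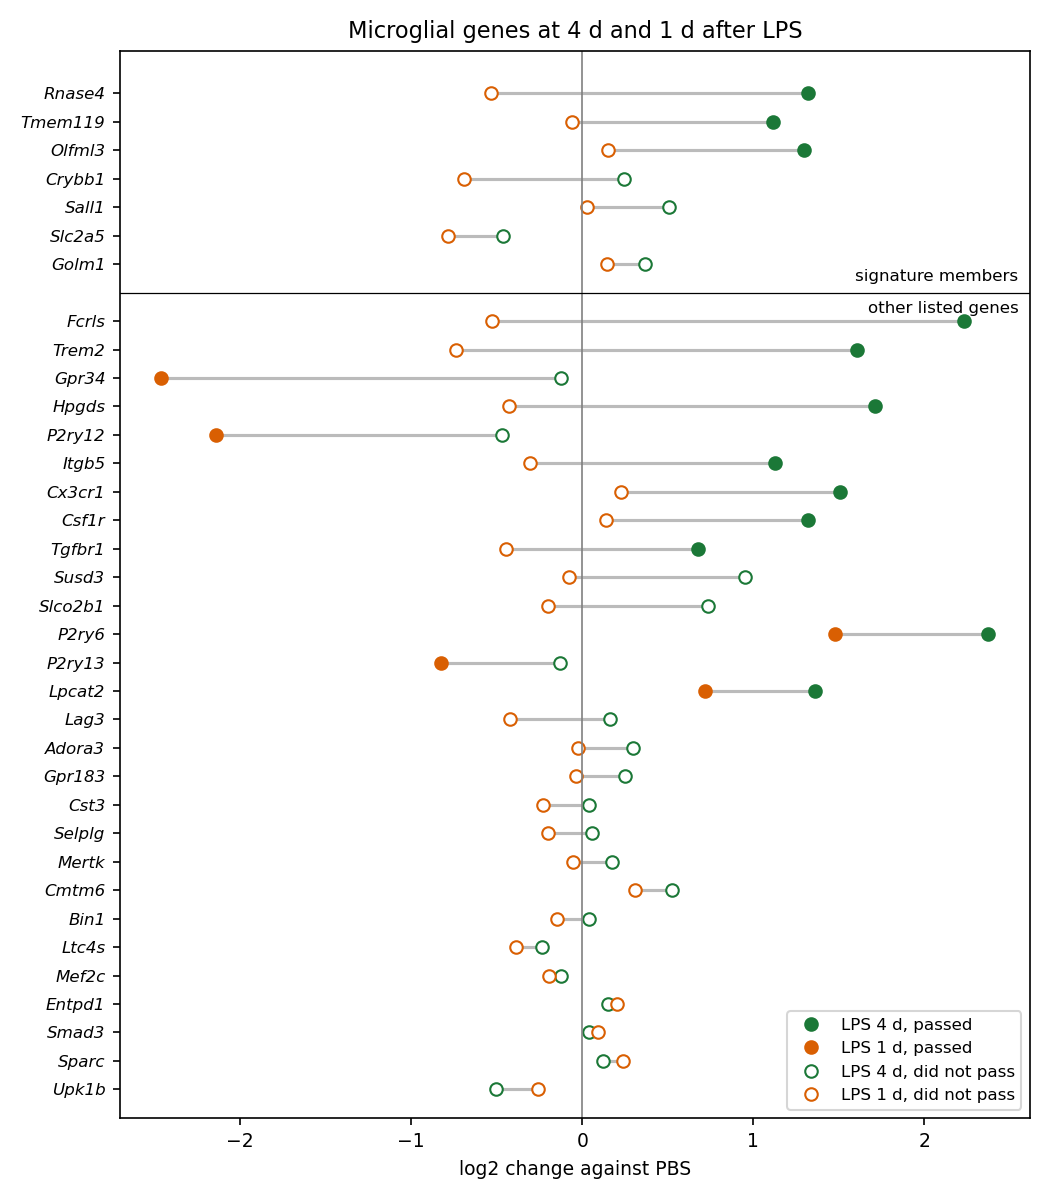
Log2 change against PBS (horizontal axis, log2 units) at 4 d and at 1 d after LPS for the 7 members (upper panel) and 28 other homeostatic genes (lower panel), ordered by the distance between the times; filled points passed the test. *Gpr34* and *P2ry12* are filled at 1 d on the left, at -2.46 and -2.14, while *Rnase4*, *Tmem119* and *Olfml3* are filled only at 4 d, and since points are fitted differences, those of genes at background, such as *Gpr34* at 1 d and *Slc2a5*, are not measured amounts.

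General macrophage genes on the same arrays are given beside the members for comparison, without a test between the lists. The pan-macrophage list had a median 2.25 log2 units above PBS at 4 d and 1.07 above it at 1 d. At 4 d its 16 genes were called higher by at least 1.54 each (the bound for *Spi1*, whose PBS mean was at background), and the 3 called members by 1.12 to 1.32. *Adgre1*, the gene of F4/80, changed by 4.26 and 2.60, *Aif1*, the gene of IBA1, by 3.11 and 1.21, and the complement gene *C1qa* by 2.15 and 0.81, at 4 d and at 1 d. The summed linear level of the 7 members was 983 to 1077 at 4 d after LPS, 407 to 534 at 1 d after LPS and 497 to 540 after PBS, so that its 1 d and PBS arrays overlapped while those of the pan-macrophage sum did not. Markers of monocytes and recruited macrophages were called higher in 11 of 13 at 4 d and 10 of 13 at 1 d against PBS. Their summed level was 2216 to 3332 at 4 d, 1704 to 1866 at 1 d and 381 to 437 after PBS, with 0, 1 and 6 of 13 at background, although *Ccr2*, the receptor gene that defines inflammatory monocytes, had means of 3.58 at 4 d, 3.33 at 1 d and 3.16 after PBS, the last 2 at background, and did not pass (adjusted p = 0.18 at 4 d and 0.633 at 1 d).

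Of all genes, 4.21% were called higher at 4 d against PBS, and 3.86% higher and 0.532% lower at 1 d. Border macrophage genes were called higher in 2 of 9 at 4 d against PBS, and at 1 d 1 was higher and 1 lower. Their summed level was 308 to 395 at 4 d, 132 to 156 at 1 d and 123 to 132 after PBS, with 5 of 9 at background in each group, among them *Cd163*, *Lyve1* and *Siglec1*. *Mrc1*, the mannose receptor gene, had the same order of groups as *Rnase4*, with means of 5.82 at 4 d, 4.04 at 1 d and 4.84 after PBS, and it was called higher at 4 d (0.97, adjusted p = 0.00757) and lower at 1 d (-0.80, adjusted p = 0.0208). The largest rises of the border macrophage list against PBS were in genes other than *Mrc1*, with log2 changes of 2.76 at 4 d and 1.05 at 1 d. Neutrophil genes were called higher in 1 of 17 at 4 d and 10 of 17 at 1 d, with sums of 340 to 562 at 4 d, 2032 to 5260 at 1 d and 143 to 227 after PBS, and with 11, 5 and 12 of 17 at background.

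Some markers of other brain cells also differed. The shares of all 17097 genes called higher and lower were 4.21% and 0.205% at 4 d against PBS. They were 3.86% and 0.532% at 1 d against PBS, and 1.84% and 1.37% between the times after LPS. The medians of all genes were -0.02, -0.03 and 0.00 in the same order. At 4 d against PBS 1 of 10 choroid plexus genes was called lower, and the list had a median of -0.76, with all 4 d arrays below PBS for 7 of 10 genes. In the same comparison 3 of 12 endothelial and pericyte genes (median 0.40) and 2 of 12 astrocyte genes (median 0.22) were called higher, 1 of 13 neuronal genes was called lower (median -0.10), and 0 of 11 oligodendrocyte genes passed in either direction (median -0.01, with 1 at an unadjusted p under 0.05). At 1 d against PBS 4 of 11 oligodendrocyte genes and 1 of 10 choroid plexus genes were called lower, 2 of 12 astrocyte genes and 1 of 12 endothelial and pericyte genes higher, and 0 of 13 neuronal genes passed (1 at an unadjusted p under 0.05). The medians at 1 d were -0.32 for oligodendrocyte, -0.25 for choroid plexus, 0.06 for astrocyte, 0.03 for endothelial and pericyte and -0.06 for neuronal genes. Between 4 d and 1 d after LPS 5 of 12 endothelial and pericyte genes (median 0.26), 4 of 11 oligodendrocyte genes (0.36) and 1 of 12 astrocyte genes (0.08) were called higher, 2 of 10 choroid plexus genes were called lower (-0.56), and 0 of 13 neuronal genes passed (-0.06, with 2 at an unadjusted p under 0.05). Their part in the member values was not tested.

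TGF-beta was named above as a signal on which the adult microglial programme depends, and 16 of 17 listed genes of its pathway were analysed. At 4 d against PBS 4 were called higher and 0 lower, where 4.21% of all genes were called higher. The list medians against PBS were 0.12 at 4 d and 0.14 at 1 d. The receptor genes *Tgfbr2* and *Tgfbr1* rose by 1.69 and 0.68 (adjusted p = 4.23e-05 and 0.00749), *Nrros*, which anchors latent TGF-beta on microglia, by 1.11 (adjusted p = 0.00061) and the co-receptor gene *Eng* by 0.78 (adjusted p = 0.0118). Against PBS at 1 d, *Nrros* and *Eng* were called higher (0.68 and 0.63, adjusted p = 0.0108 and 0.0349). *Tgfbr1* was 8.40, 8.31 and 8.37 on the LPS 4 d arrays, 7.48, 7.13 and 7.10 on the LPS 1 d arrays and 7.65, 7.73 and 7.66 on the PBS arrays, without overlap between any of the groups, which is the order that *Rnase4* had. Its change at 1 d against PBS was -0.45 (adjusted p = 0.0582). The transducer genes *Smad3* (0.04) and *Smad7* (-0.08) did not pass at 4 d, and the ligand gene *Tgfb1* was at background in all 3 groups. *Tgfbr1* and *Smad3* also stand on the list of other homeostatic genes. The part of the pathway genes in the member values was not tested.

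Relatives of the members by gene family, and genes beside them in the genome, mostly did not move with them. Of 27 such genes analysed, 3 were called higher at 4 d against PBS, 1 was called lower at 1 d against PBS and 2 were called higher at 4 d against 1 d after LPS. The shares of all genes were 4.21%, 0.532% and 1.84% in the same order. The Sall factors *Sall2* and *Sall3* had log2 changes of -0.08 and 0.07 at 4 d against PBS, *Sall4* was at background in all groups, and *Golm2* changed by -0.08. *Slc2a1*, the glucose transporter GLUT1 of brain endothelium, was called higher at 4 d (0.63, adjusted p = 0.00107), and *Slc2a3*, the neuronal glucose transporter GLUT3, was not (-0.11, adjusted p = 0.585). The olfactomedin-like gene *Olfml1* was called lower at 1 d (-0.91, adjusted p = 0.0335).

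The other 2 genes called higher at 4 d were those that overlap a member in the mouse annotation. *Ang*, on chromosome 14 with *Rnase4*, measured 4.41, 4.76 and 4.45 log2 units on the LPS 4 d arrays, 3.37, 3.30 and 3.14 on the LPS 1 d arrays and 3.67, 3.64 and 3.52 on the PBS arrays. As with *Rnase4*, all 4 d arrays lay above and all 1 d arrays below PBS. The difference of *Ang* at 1 d from PBS did not pass (adjusted p = 0.169 from limma). *Ang* rose at 4 d against PBS by 0.93 (adjusted p = 0.00161 from limma), and since its 1 d arrays were all at background, 4 d was at least 2.07-fold higher than 1 d (adjusted p = 0.00064).

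*Cryba4*, a lens crystallin gene on chromosome 5 with *Crybb1*, measured 4.36, 4.65 and 4.50 on the LPS 4 d arrays, 3.10, 2.96 and 2.28 on the LPS 1 d arrays and 3.19, 2.23 and 2.23 on the PBS arrays. Only the 4 d arrays were above background, and 4 d was at least 2.02-fold higher than PBS and than 1 d (adjusted p = 0.00504 and 0.0144 from limma). *Crybb1* itself did not pass in either comparison, and its 2 lower 4 d arrays were under those of PBS. The positions of the probes are not given in the sources used here, so signal from overlapping transcripts may not be separable. Among 12 analysed genes that overlap a member or lie closest to it on either side, a set formed after values were seen, *Ang* and *Cryba4* were the 2 called higher at 4 d against PBS and the 2 called higher at 4 d against 1 d, and 0 passed at 1 d against PBS. *Selplg*, a homeostatic microglial gene beside *Tmem119*, had a change of 0.06 at 4 d against PBS, and *Hipk1*, beside *Olfml3*, did not pass either.

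**Figure D5:**
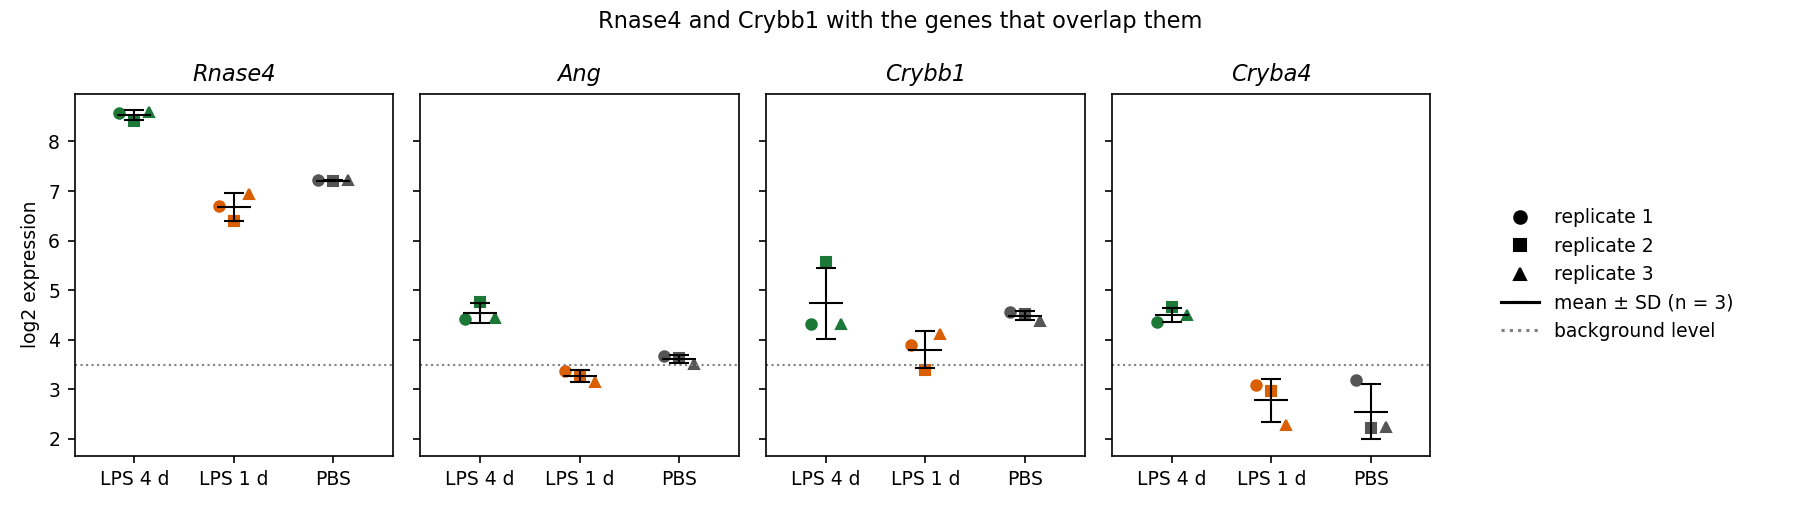
Log2 expression (vertical axis, log2 units) of *Rnase4* and *Ang*, and of *Crybb1* and *Cryba4*, on each array for LPS 4 d, LPS 1 d and PBS, with bars for the mean ± SD of 3 arrays and a dotted line at the background level of 3.49. *Ang* is highest at 4 d after LPS, as *Rnase4* is, with all its 1 d arrays under the background level, while *Cryba4* is above background only at 4 d after LPS.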

How the data were processed

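Total RNA of 9 pools was labelled by in vitro transcription and hybridised to Affymetrix HT MG-430 PM arrays. The authors processed the scans with RMA in Affymetrix Expression Console (version not given in the sources used here). Deposited values are on a log2 scale with a value for each probe set, after RMA's background correction, normalization across arrays and summary of probes, none of which was repeated. No slide or scan batch could be tested, since none is stated. With 3 arrays a group the precision is limited, and p values reflect how far RNA pools differed.

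Control entries (104) were removed, which left 45037 probe sets for testing. Names came from the platform annotation: 28898 probe sets had 1 symbol, 551 several and 15588 none, and 28689 were matched through Entrez identifiers. limma 3.58.1 (R 4.3.3) estimated the mean of every group from the 9 arrays together, with 6 residual, 3.02 prior and 9.02 total degrees of freedom. Its p values were adjusted by Benjamini-Hochberg over the whole table. Calls needed both an adjusted p under 0.05 and a change of 1.5-fold or more, as in the study. The limma F-test across the groups stands for its analysis of variance. Ordinary tests without moderation were an alternative, and between groups they used only the arrays of the groups compared. An exact permutation test of 3 against 3 arrays cannot go below 0.1 (two-sided) and was not used. The fit was tested on simulated data.

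The members, the gene lists and the tests were chosen with earlier results of these data known. The text names the 7 members and the genes most correlated with each member over the arrays (3) or with the mean of the members (5). For some lists only, it also names genes with the largest called changes, up to 4 per comparison. Other named genes illustrate a list and were chosen after their values were seen. Promoter windows came from RefSeq (GRCm38.p6). Tables and figures used Python 3.11.15, pandas 2.3.3, numpy 2.4.6, scipy 1.17.1 and matplotlib 3.10.9. Alternatives were the replicate number as a block, leaving out each array, other moderation, fold thresholds, filters, normalization, choice of probe set and samples in the fit.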

Additional observations from a re-analysis of the deposited data

Results flagged for a closer look

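For *Tmem119*, *Olfml3* and *Rnase4* LPS 4 d exceeded LPS 1 d in the limma contrast between the times, as given above. The differences from PBS at 4 d and at 1 d use the same PBS arrays, so the gap between them is this same contrast. Without a PBS group at 1 d, a difference between the effects of LPS at the times could not be estimated. The log2 differences between the times were 1.18 for *Tmem119*, 1.15 for *Olfml3* and 1.85 for *Rnase4*, and all 3 arrays at 4 d lay above all 3 at 1 d for each gene. The pan-macrophage list had a median of 1.29 in the same comparison, and its part in these values was not tested.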

How the results depend on the processing

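The calls of *Rnase4* and *Olfml3* held under the alternatives run, except with ordinary tests without moderation, and that of *Tmem119* did not. Besides lacking moderation, the ordinary tests between groups used only the arrays of the groups compared. With ordinary tests, 1 member (*Rnase4*) was called higher at 4 d against PBS and 0 at 4 d against 1 d, against 3 in each with moderation. The ordinary test across the 3 groups called 2 members (*Olfml3* and *Rnase4*). A moderated fit of only LPS 4 d and LPS 1 d called 2 members and 10 other homeostatic genes higher. With moderation following signal intensity, or without probe sets at background in every group, the test across the groups called 4 members, *Golm1* included. There *Rnase4* at 1 d (limma adjusted p = 0.00784 and 0.0371) and *Golm1* at 4 d (0.0132 and 0.0235) passed the p threshold against PBS, not the fold threshold. Both called 4 other homeostatic genes lower at 1 d against PBS, *Trem2* included. For the other homeostatic genes the ordinary tests called 4 higher at 4 d against PBS, 0 higher and 0 lower at 1 d against PBS and 0 higher at 4 d against 1 d, against 9, 2, 3 and 13 with moderation. With a fold change of at least 2, 1 of them was called higher at 1 d against PBS in place of 2. Leaving out 1 array at a time gave 2 to 3 members higher at 4 d against PBS, 2 to 3 higher at 4 d against 1 d, 0 to 1 lower at 1 d against PBS and 2 to 3 across the groups. Of the other homeostatic genes it gave 8 to 10 higher at 4 d against PBS and 9 to 13 higher at 4 d against 1 d. At 1 d against PBS it gave 2 of them higher and 3 lower.

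*Tmem119* at 4 d against 1 d lost its call without any array other than LPS 1 d replicate 2 (adjusted p 0.0524 to 0.144) and when only those groups were fitted (adjusted p = 0.140). Changes that turned sign were not called before or after: *Crybb1* at 4 d against PBS was -0.17 without LPS 4 d replicate 2 (range without 1 array -0.17 to 0.45), *Sall1* at 1 d against PBS was between -0.031 and -0.029 with any 1 of 3 arrays left out (LPS 1 d replicate 1 or 3, PBS replicate 1; range -0.031 to 0.15), and *Tmem119* at 1 d against PBS was 0.28 without LPS 1 d replicate 2 and 0.02 without PBS replicate 2 (range -0.24 to 0.28). The causes were not tested.

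The replicate numbers do not pair the samples, since same-numbered arrays correlated between -0.05 and 0.04 in their deviations from the group means. With the replicate number as a block, 2 members were called higher at 4 d against PBS and 2 at 4 d against 1 d (*Olfml3* and *Rnase4*), and *Tmem119* had adjusted p values of 0.0731 and 0.0838. Signals near background, as for *Slc2a5* and *Crybb1*, limit what these arrays can show.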
